A study of Mus musculus with 12 samples.

Results

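Inmt, Odf3l2, Arrdc2, Frzb, Plekhh3, Zfp503, Slc25a25 and Abhd12 are 8 genes that were listed because they had fewer reads in contracted than in uncontracted mouse calf muscle. They were matched by symbol to the deposited table of 47643 gene identifiers. Each symbol matched 1 identifier, and all 8 were among the 6676 genes with enough reads to be tested. The genes were chosen by these contraction reads, and the rule gives no cut-off. The contraction values below therefore describe how the genes were picked and are given with no test. The Myc comparisons share the libraries behind the choice but are other contrasts, and they were tested.

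The study counted messenger RNA from its 3' ends in the gastrocnemius of female C57BL/6J mice aged 11 weeks, either controls or c-myc (Myc) over-expressing. Each of 6 animals, 3 per genotype, gave a left leg that was not contracted and a right leg that was acutely contracted, so that 12 libraries formed 4 groups of 3. The groups were uncontracted control, contracted control, uncontracted Myc and contracted Myc. Contraction and body side cannot be told apart, and the labels do not say how Myc was over-expressed, in which cells, or at what time after the contraction tissue was sampled.

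The 12 libraries held 1371732 to 1643216 reads, so that 1 read was worth 0.601 to 0.774 CPM (reads relative to library size, scaled by trimmed mean of M values, TMM). All 10 listed muscle fibre markers were read in these libraries, with summed levels of 117063 to 140688 CPM in uncontracted and 106381 to 132805 CPM in contracted legs. Myc reads went against the label in 4 contracted libraries, numbers 2 and 3 of both genotypes. Those labelled control held 10 and 59 Myc reads and those labelled Myc held 0 and 2. Genotype and animal of these 4 legs follow the labels here, and whether the labels are right was not tested. The ratios of legs within the animals numbered 2 and 3 rest on these labels. Several fitted changes that split contracted legs by genotype are therefore given with and without these 4, and the others with all 12 libraries alone. The reads of contracted legs numbered 1 show the levels without these 4. The average over both genotypes takes 3 contracted legs under each label.

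The 8 genes belong to no common pathway. Muscle activity is known to act on messenger RNA both by inducing stress and growth genes and by lowering other transcripts, and a level can fall through less transcription or through faster decay. Inmt encodes an enzyme that adds methyl groups to tryptamine and related amines, and Abhd12 a lipid hydrolase that acts on lysophosphatidylserine and on the endocannabinoid 2-arachidonoylglycerol. Slc25a25 encodes a calcium-regulated carrier that exchanges ATP-magnesium for phosphate across the inner mitochondrial membrane, and mice that lack it are known to have reduced endurance. Arrdc2 encodes an alpha-arrestin, a class of adaptors for ubiquitin ligases, and Frzb a secreted Wnt-binding inhibitor. Zfp503 encodes a zinc finger repressor, Plekhh3 a protein with domains that bind membrane and cytoskeleton, and Odf3l2 a relative of a sperm tail fibre protein.

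RefSeq promoter windows of build GRCm38.p6, 250 bases before to 50 after an annotated start, were found for 6 of the 8 genes and not for Odf3l2 or Abhd12. The windows of the enzyme gene Inmt, the adaptor gene Arrdc2 and 1 of 3 annotated starts of the carrier gene Slc25a25 are shown, since these genes had averaged contraction changes among the 5 lowest of all tested genes. Capitals mark matches on either strand. The motifs searched that gave a match were the TATA box, spelled TATAAA, the box spelled CCAAT, which reads in reverse as ATTGG, the cAMP response element, spelled TGACGTCA, and the D-box, spelled TTANGTAA.
Inmt, chr6:55174941-55175240, minus strand: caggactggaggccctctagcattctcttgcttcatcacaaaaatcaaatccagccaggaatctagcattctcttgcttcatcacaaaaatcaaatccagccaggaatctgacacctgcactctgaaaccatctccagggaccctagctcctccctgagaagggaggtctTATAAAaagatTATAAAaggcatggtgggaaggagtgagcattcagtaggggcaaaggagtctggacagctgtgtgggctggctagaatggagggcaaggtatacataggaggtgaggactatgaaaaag
Arrdc2, chr8:70839671-70839970, minus strand: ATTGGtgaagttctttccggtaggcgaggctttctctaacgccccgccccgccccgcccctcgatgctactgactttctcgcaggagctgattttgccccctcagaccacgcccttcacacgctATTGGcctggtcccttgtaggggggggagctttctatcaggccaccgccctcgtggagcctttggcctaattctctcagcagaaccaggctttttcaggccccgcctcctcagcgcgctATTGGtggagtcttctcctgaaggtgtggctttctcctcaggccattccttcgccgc
Slc25a25, chr2:32424017-32424316, minus strand: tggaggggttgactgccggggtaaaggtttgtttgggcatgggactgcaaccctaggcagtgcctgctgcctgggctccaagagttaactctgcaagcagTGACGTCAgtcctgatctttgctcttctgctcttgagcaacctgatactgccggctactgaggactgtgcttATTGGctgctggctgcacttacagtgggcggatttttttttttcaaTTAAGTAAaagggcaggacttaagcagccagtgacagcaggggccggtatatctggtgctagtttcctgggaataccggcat

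The Inmt window held no CpG and 2 TATAAA matches (letters that 13.6% of all windows held), starting at bases 171 and 182 of the window. It also carried an exact direct repeat of 46 bases, starting at bases 16 and 62 of the window, and repeats of at least 30 bases were found in 0.619% of all 32817 windows. Slc25a25 had the only TGACGTCA and TTANGTAA matches among the 6 genes, letters that 1.79% and 2.32% of all windows held. Both lie in the window shown, and its windows not shown matched CCAAT alone. The 6 genes had 9 windows, 3 of them of Slc25a25, so counts of genes and shares of single windows are unlike measures. CCAAT was found in windows of 3 genes, Arrdc2, Plekhh3 and Slc25a25, and in 37.4% of all windows. None of the 6 genes' windows held the E-box CACGTG (7.15% of all windows), a glucocorticoid response element (0.475%), the FOXO sequence GTAAACA (3.65%), a CArG box (1.63%) or a MEF2 site (0.558%). In the windows shown no match overlapped another.

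All 8 genes are annotated on the minus strand, as were 48.7% of the tested genes. Frzb, Slc25a25 and Abhd12 lie on chromosome 2, which held 7.76% of the tested genes. In the GENCODE annotation of the same build no other gene covers the 3' end of any of the 8. Gm47163, on the opposite strand, lies 6 bases from the 3' end of Odf3l2 and was not analysed here. On the opposite strand too, Pygb, which encodes a glycogen phosphorylase, ends 735 bases from Abhd12. Pygb had 95 reads in uncontracted and 72 in contracted legs, with a log2 change of -0.40 ± 0.24 (SE, edgeR adjusted p = 0.388). Tubg2 ends 892 bases from Plekhh3 and had 29 and 27 reads. The strand setting of the counting is not given, so reads of opposite strands cannot be told apart where genes overlap.

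Across the list, the contracted leg was lower in 45 of 48 pairs of legs (8 genes in 6 animals). In 28 of these 48 pairs the exact 95% interval of the ratio, which covers counting error only, lay below the uncontracted level, and in 1 it lay above. The contracted leg was lower in all 6 animals for 6 genes, all but Frzb and Plekhh3, while 5.06% of the tested genes showed this. The lowest uncontracted leg lay above the highest contracted leg, 6 against 6, for Inmt, Odf3l2 and Abhd12, compared with 0.869% of tested genes. Since the choice of the genes used these values, nothing is read from these counts.

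**Figure D1:**
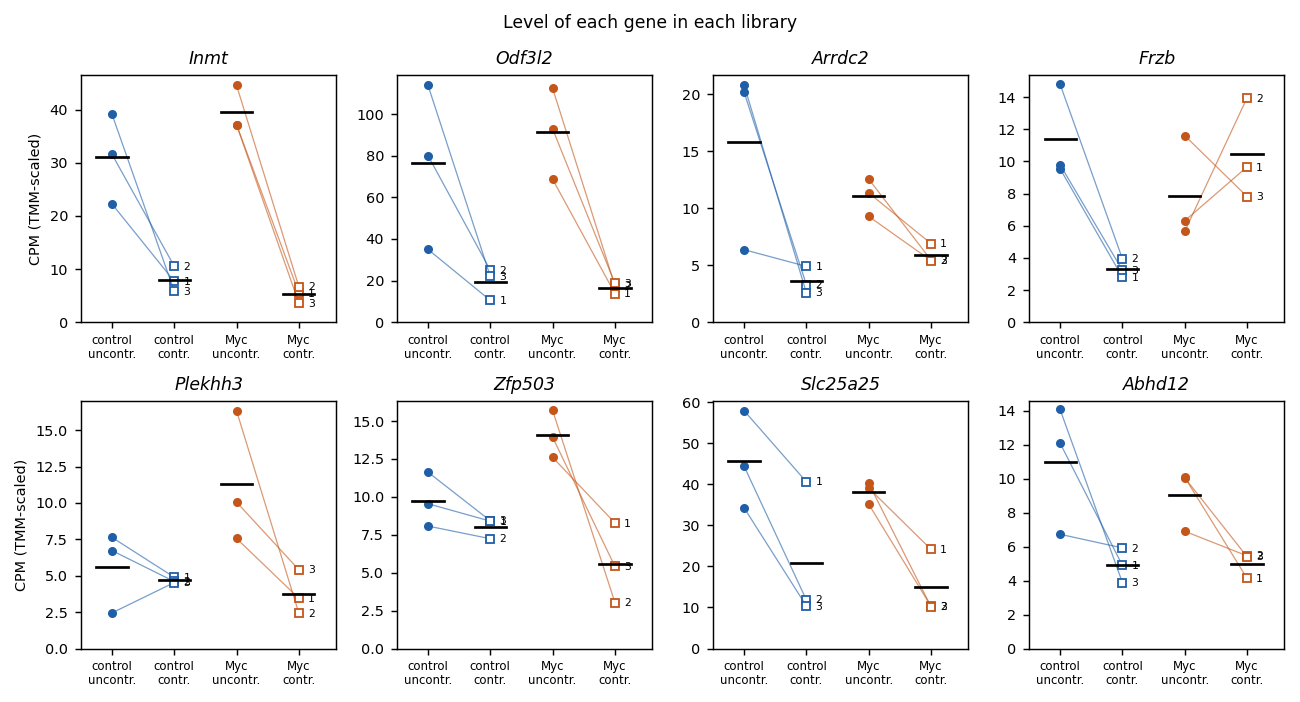
Level of each of the 8 genes (CPM, TMM-scaled, vertical axes from 0) in the 12 libraries. Filled circles are uncontracted and open squares contracted legs, blue control and orange Myc, lines join the legs of an animal, digits give its number and black bars the mean of 3. For Frzb the contracted Myc legs (7.82 to 14.0 CPM) lie above the contracted control legs (2.80 to 3.95 CPM).

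Inmt (ENSMUSG00000003477, chr6:55170626-55175043, 3 exonic blocks) had 35, 47 and 64 reads in uncontracted control 1, 2 and 3, 11, 16 and 9 in the contracted ones, 59, 71 and 48 in uncontracted Myc and 8, 11 and 6 in contracted Myc. Uncontracted and contracted legs did not overlap in either genotype. In controls the level went from 31.0 ± 8.46 to 8.02 ± 2.37 CPM (SD, n = 3), and in Myc animals from 39.6 ± 4.28 to 5.27 ± 1.55 CPM. The log2 change was -1.94 in control and -2.90 in Myc animals, and -2.01 and -2.82 without the 4 libraries. The contracted leg of an animal held 9.72 to 34.6% of the level of its own uncontracted leg, with a median of 14.9%. Averaged over genotypes the log2 change was -2.42 ± 0.20 (SE), to 18.7% of the uncontracted level, the lowest of all 6676 tested genes.

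Of other methyltransferase genes for small molecules, Gamt, of creatine synthesis, had a log2 change of -0.49 ± 0.19 (SE, edgeR adjusted p = 0.135) and Pemt, of phosphatidylcholine synthesis, a change of 0.06 ± 0.37 (adjusted p = 0.958). Neither passed. Nnmt, with 12 uncontracted and 26 contracted reads, and Pnmt, with 40 and 26, had too few reads to be tested.

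Abhd12, the other enzyme gene (ENSMUSG00000032046, chr2:150832493-150904741, 16 exonic blocks), had 19, 10 and 23 reads in uncontracted and 7, 9 and 6 in contracted control legs, and 16, 11 and 13 against 6, 9 and 9 in Myc legs. Its uncontracted legs (6.73 to 14.1 CPM) all lay above its contracted legs (3.89 to 5.92 CPM). Within an animal the contracted leg held 27.6 to 88.0% of the uncontracted level, and only in control animal 3 did the counting interval stay below 100% (9.20 to 69.8%). The averaged log2 change was -0.99 ± 0.26 (SE), and -1.13 ± 0.42 without the 4 libraries.

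None of the 7 other tested genes of monoacylglycerol and endocannabinoid metabolism passed (median log2 change -0.27, against -0.00326 over all tested genes). Mgll, the main monoacylglycerol lipase gene, had a change of 0.32 ± 0.16 (SE, edgeR adjusted p = 0.267), and Pnpla2, the adipose triglyceride lipase gene, one of -0.27 ± 0.12 (adjusted p = 0.196). Dagla, a gene for 2-arachidonoylglycerol synthesis, had 45 uncontracted and 26 contracted reads, with a change of -0.88 ± 0.47 (edgeR adjusted p = 0.308).

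Slc25a25 (ENSMUSG00000026819, chr2:32414487-32451445, 13 exonic blocks) had 91, 66 and 56 reads in uncontracted and 58, 18 and 16 in contracted control legs, and 62, 56 and 52 against 35, 17 and 17 in Myc legs. The contracted legs numbered 1 stood apart in both genotypes, at 40.6 and 24.1 CPM, above the 10.2 to 11.8 CPM of the 4 legs numbered 2 and 3. In the animals numbered 1 the contracted leg held 70.1% (control) and 61.8% (Myc) of the uncontracted level, and in the other 4 animals 25.4 to 30.2%. All 6 intervals lay below 100%. Over both genotypes the log2 change was -1.26 ± 0.26 (SE), and -0.41 ± 0.21 without the 4 libraries. Leaving out contracted control 1 gave -1.72. The level of this gene in contracted legs thus split by animal number in both genotypes. A chi-square per degree of freedom over genes measured how far 2 libraries of a group differed. Contracted control 1 differed from 2 and 3 by 6.06 and 8.72, and these from each other by 4.33. For contracted Myc the values were 10.1 and 7.47 against 2.56. Pairs of uncontracted legs gave 4.44 to 6.78 in control and 2.95 to 5.39 in Myc animals. These values compare whole libraries and do not show which other genes split in this way. What else differed between these animals was not tested.

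None of the 4 other tested phosphate and adenine nucleotide carrier genes passed. Slc25a23, which encodes another calcium-regulated ATP-magnesium carrier, had 124 uncontracted and 130 contracted reads, with a log2 change of 0.05 ± 0.18 (SE, edgeR adjusted p = 0.915). The ADP/ATP carrier gene Slc25a4 had a change of 0.02 ± 0.08 (adjusted p = 0.914) and the phosphate carrier gene Slc25a3 one of -0.07 ± 0.09 (adjusted p = 0.761), both by edgeR. Slc25a24, another carrier of the same kind, had 9 and 22 reads and was not tested.

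Arrdc2 (ENSMUSG00000002910, chr8:70835129-70839720, 4 exonic blocks) had 10, 30 and 34 reads in uncontracted and 7, 5 and 4 in contracted control legs, and 18, 20 and 12 against 10, 9 and 9 in Myc legs. Legs did not overlap within either genotype, but uncontracted control 1, at 6.36 CPM, lay below contracted Myc 1, at 6.90 CPM. In control animals 2 and 3 the contracted leg held 16.3 and 12.5% of the uncontracted level, in control animal 1 it held 77.0%, and in Myc animals 43.5 to 60.8%. Only 3 of the 6 counting intervals lay below 100%. Over both genotypes the log2 change was -1.52 ± 0.30 (SE), and -1.17 ± 0.43 without the 4 libraries.

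Of the other alpha-arrestin genes Txnip, which encodes the thioredoxin-interacting protein that restrains glucose uptake, had 999 uncontracted and 1172 contracted reads (log2 change 0.19 ± 0.24, SE, edgeR adjusted p = 0.731). Arrdc3 had 51 and 69 reads (0.41 ± 0.29, edgeR adjusted p = 0.473), and neither passed. Arrdc4, with 26 and 23 reads, and Arrdc1, with 13 and 7, were not tested, and Arrdc5 had no read.

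Arrdc2 is also known as a glucocorticoid-responsive gene, and 26 other genes of that kind were tested. On average over genotypes 9 rose (background 5.71%), 3 fell (background 1.77%) and 14 did not pass, with a median log2 change of 0.31 against -0.00326 over all tested genes. The 3 that fell, named after their values were seen, were Sgk1, a kinase gene (-0.76 ± 0.15, SE, edgeR adjusted p = 0.00248), Foxo1, a transcription factor gene of the fasting response (-0.70 ± 0.18, adjusted p = 0.0155), and Ddit4, an inhibitor of the growth kinase mTOR (-0.88 ± 0.23, adjusted p = 0.0170). Among those that rose, the metallothionein genes Mt2 and Mt1 rose by 3.23 ± 0.23 and 3.15 ± 0.22 (edgeR adjusted p = 1.69e-09 and 1.35e-09), and Trim63, a ubiquitin ligase gene of muscle atrophy, by 1.81 ± 0.20 (adjusted p = 1.32e-06). Without the 4 contracted libraries 3 rose (background 1.32%), 1 fell (background 0.151%) and the median was -0.0899.

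Frzb (ENSMUSG00000027004, chr2:80411970-80447625, 6 exonic blocks) was the gene of the 8 whose contraction values differed most between genotypes. It had 15, 22 and 16 reads in uncontracted and 4, 6 and 5 in contracted control legs, a mean of 11.4 ± 2.97 against 3.33 ± 0.580 CPM (SD, n = 3). In Myc animals it had 10, 9 and 15 reads in uncontracted and 14, 23 and 13 in contracted legs, 7.85 ± 3.27 against 10.5 ± 3.15 CPM. The contracted leg held 26.7 to 33.1% of the uncontracted level in the 3 control animals, with every interval below 100%, but 153, 247 and 67.4% in Myc animals 1, 2 and 3. In Myc animal 2 the interval, 110 to 606%, lay above 100%. The ratios of animals 2 and 3 of both genotypes use contracted legs whose Myc reads go against the label. The log2 change was -1.74 in control and 0.45 in Myc animals, and -1.99 and 0.35 without the 4 libraries. The averaged log2 change, -0.64 ± 0.27 (SE), ranked 121st of 6676 and was the smallest of the 8.

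Among 18 other genes of Wnt inhibition and feedback only Nkd2 had enough reads to be tested, with 57 and 69 reads and a log2 change of 0.27 ± 0.28 (SE, edgeR adjusted p = 0.661). The secreted inhibitor genes Sfrp4 (44 and 49 reads), Dkk2 (40 and 38) and Wif1 (37 and 36) were read in both legs at low counts. The feedback gene Axin2 had 6 and 3 reads, too few to show a difference at this depth.

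Zfp503 (ENSMUSG00000039081, chr14:21983959-21989601, 3 exonic blocks) had 15, 12 and 19 reads in uncontracted and 12, 11 and 13 in contracted control legs, a mean of 9.75 ± 1.79 against 8.02 ± 0.676 CPM (SD, n = 3), and these ranges overlapped. In Myc animals 20, 25 and 18 reads stood against 12, 5 and 9, or 14.1 ± 1.55 against 5.57 ± 2.63 CPM, without overlap. Within an animal the contracted leg held 72.4 to 89.7% of the uncontracted level in controls and 19.3 to 65.7% in Myc animals. The log2 change was -0.29 in control and -1.35 in Myc animals, and -0.23 and -0.75 without the 4 libraries. On average the log2 change was -0.82 ± 0.23 (SE), and -0.49 ± 0.31 without the 4 libraries. Its only close relative, Zfp703, rose from 217 to 343 reads over 6 legs each (0.64 ± 0.16, edgeR adjusted p = 0.0103), and without the 4 libraries the change was 0.56 and did not pass.

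Plekhh3 (ENSMUSG00000035172, chr11:101162679-101171351, 13 exonic blocks) had 12, 10 and 4 reads in uncontracted and 7, 7 and 7 in contracted control legs, and 12, 26 and 13 against 5, 4 and 9 in Myc legs. The control legs overlapped, and in control animal 3 the contracted leg held 185% of the uncontracted level, with an interval of 47.1 to 863%. The Myc legs did not overlap, at 11.3 ± 4.51 against 3.76 ± 1.52 CPM (SD, n = 3). Of the 6 counting intervals only that of Myc animal 2, where the contracted leg held 14.9% (3.77 to 42.8%), lay below 100%. The log2 change was -0.24 in control and -1.57 in Myc animals, and -0.18 and -1.68 without the 4 libraries. On average the log2 change was -0.91 ± 0.32 (SE). Plekhh1 had no read and Plekhh2 7 and 4, so no relative could be compared.

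Odf3l2 (ENSMUSG00000035963, chr10:79639526-79645738, 4 exonic blocks) had the most reads of the 8, with 55, 119 and 186 in uncontracted and 15, 38 and 34 in contracted control legs, and 109, 179 and 120 against 20, 29 and 31 in Myc legs. The lowest uncontracted leg, at 35.0 CPM, lay above all contracted legs. The contracted leg of an animal held 15.7 to 31.2% of the uncontracted level, and all 6 intervals lay below 100%. Uncontracted and contracted control 1 were the lowest of their legs, and their ratio was within the range of the other animals. The averaged log2 change was -2.21 ± 0.24 (SE), to 21.6% of the uncontracted level, and -2.78 ± 0.38 without the 4 libraries. Of its 7 relatives by name none had enough reads to be tested, and Odf2 had the most, 47 and 36.

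**Figure D2:**
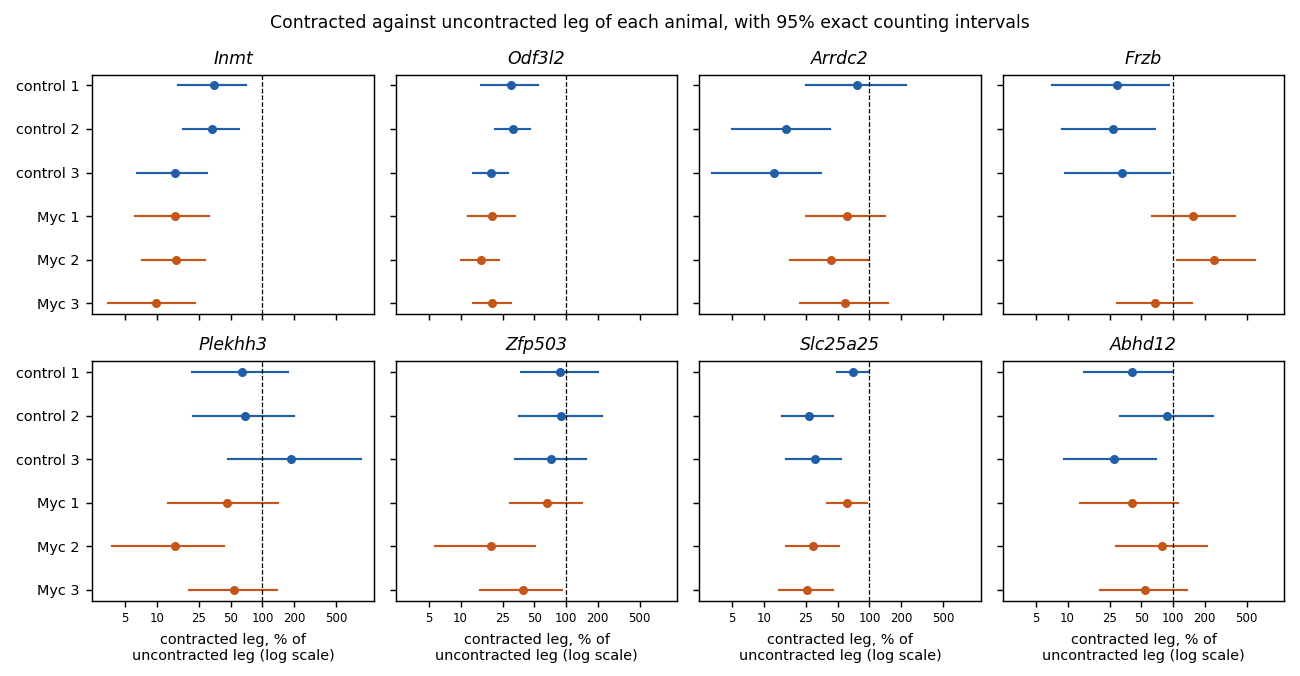
Level in the contracted leg as a percentage of that in the uncontracted leg of the same animal (log axis), with exact 95% intervals for counting error, for the 3 control (blue) and 3 Myc animals (orange). All 6 intervals lie left of the dashed line at 100% for Inmt, Odf3l2 and Slc25a25, and those of Frzb lie left of it in the 3 control animals. The animals numbered 2 and 3 have contracted legs whose Myc reads go against the label.

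Averaged over genotypes, Inmt, Odf3l2, Arrdc2 and Slc25a25 ranked 1st, 2nd, 3rd and 5th from the lowest log2 change among the 6676 tested genes, Abhd12 21st, Plekhh3 26th, Zfp503 42nd and Frzb 121st. The median log2 change of the 8 was -1.12 on average, -1.45 in control and -1.36 in Myc animals, and without the 4 libraries -1.03, -1.42 and -0.92.

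Fewer cells of a type and less RNA per cell cannot be told apart in whole muscle. Summed smooth muscle and pericyte markers (8 of 8 read) were 175 to 219 CPM in uncontracted and 140 to 177 CPM in contracted legs. Fibroblast markers (10 of 10 read) were 741 to 1659 and 764 to 1461 CPM, tendon markers (5 of 5) 215 to 279 and 224 to 295 CPM, and endothelial markers (9 of 9) 220 to 258 and 201 to 236 CPM. Haemoglobin and other erythrocyte markers (5 of 5) were 310 to 462 in uncontracted and 399 to 1000 CPM in contracted legs. Neutrophil markers (3 of 6 read, with Csf3r, Cxcr2 and Ly6g at 0) were 0 to 3.67 and 4.85 to 67.4 CPM. By edgeR on average over genotypes 4 of 4 tested erythrocyte genes and 2 of 2 tested neutrophil genes rose. Of all tested genes 5.71% rose and 1.77% fell. The neutrophil genes S100a8 and S100a9 had 6 and 1 reads over the 6 uncontracted legs. Of the 4 erythrocyte genes 0 rose in control and 2 in Myc animals. Of 6 tested smooth muscle and pericyte genes 1 fell, Acta2 (-0.55 ± 0.13, SE, edgeR adjusted p = 0.0117). Of 4 tested tendon genes 1 rose, Thbs4 (0.67 ± 0.17, edgeR adjusted p = 0.0173). Macrophage markers (7 of 7 read) were 79.4 to 143 and 75.8 to 112 CPM. Of 4 tested, the receptor gene Csf1r (-0.54 ± 0.15, edgeR adjusted p = 0.0294) and the complement gene C1qa (-0.60 ± 0.16, adjusted p = 0.0220) fell, and the lysosomal gene Cd68 rose (1.70 ± 0.40, adjusted p = 0.00941). The part of these cell types in the results was not tested.

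By genotype, the summed fibroblast markers were 1051 to 1659 CPM in uncontracted and 892 to 1174 CPM in contracted control legs. In Myc legs they were 741 to 870 against 764 to 1461 CPM. Ranges of uncontracted and contracted legs overlap within each genotype, while those of uncontracted legs do not overlap between genotypes. In the animals numbered 1 the sum was 1051 in the uncontracted and 1078 CPM in the contracted leg of the control and 826 and 764 CPM in those of the Myc animal. The median log2 change of the 9 tested genes was -0.29 in control and 0.24 in Myc animals. Without the 4 contracted libraries these medians were -0.26 and 0.02. In the fit of all 12 libraries every tested gene but Lum had a higher change in Myc than in control animals. Col1a1, a collagen gene, had log2 changes of -0.85 in control and 0.52 in Myc animals, and Lum, a proteoglycan gene, of 0.12 and -0.42. None of the 9 tested fibroblast genes passed edgeR's test in either genotype. Their part in the Frzb values was not tested.

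**Figure D3:**
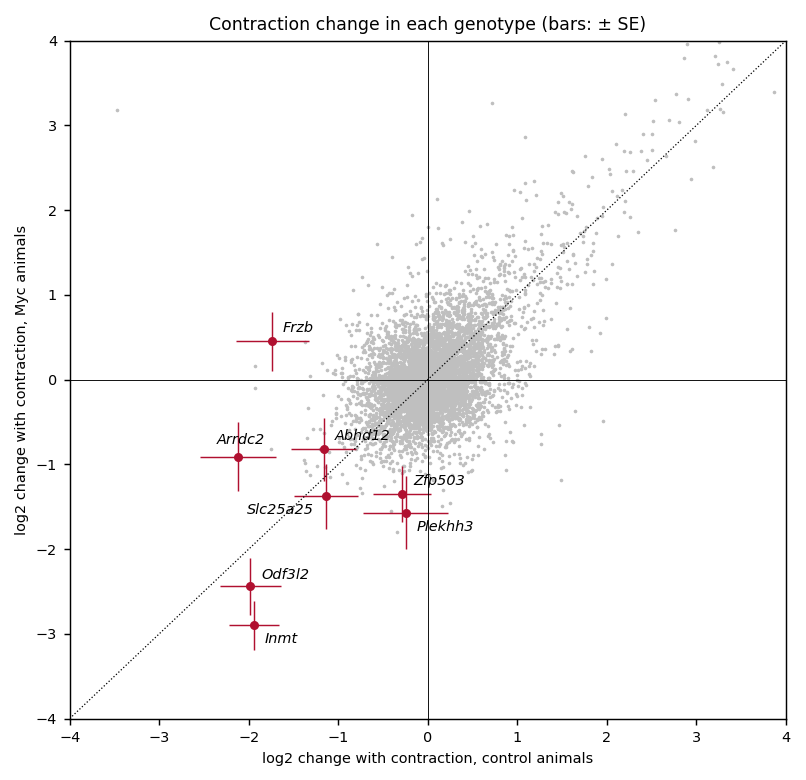
Log2 change with contraction in control (horizontal) and in Myc animals (vertical) for the tested genes (grey, 17 of them outside the drawn range of -4 to 4) and the 8 listed genes (red, bars ± SE). Inmt and Odf3l2 lie low in both genotypes, Frzb is at -1.74 in control and 0.45 in Myc animals, and Zfp503 and Plekhh3 are near 0 in controls.

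How alike the contraction values were in the 2 genotypes was asked with an interaction term, the change in Myc minus the change in control animals. None of the 8 passed (edgeR adjusted p = 0.855 to 0.988), nor did any of 6676 genes (background 0%), while 331 genes (4.96%) had an unadjusted p under 0.05, and DESeq2 also made 0 calls. The largest difference was that of Frzb, 2.19 (95% interval 1.06 to 3.31, edgeR adjusted p = 0.855), and 2.34 (0.53 to 4.14) without the 4 libraries. Arrdc2 had a difference of 1.21 (-0.0667 to 2.48). Inmt had one of -0.96 (-1.86 to -0.0474), Zfp503 of -1.06 (-2.04 to -0.0905) and Plekhh3 of -1.32 (-2.69 to 0.0379), and without the 4 libraries all 4 of these intervals included 0. For Odf3l2 (-1.48 to 0.57), Slc25a25 (-1.35 to 0.87) and Abhd12 (-0.77 to 1.44) the intervals also included 0, and their ends show the differences that these libraries cannot tell from it. A gene listed for a low value in 1 genotype is likely to differ from the other, so these intervals are not independent of the choice.

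Whether Myc changed the 8 genes in resting muscle was tested between the uncontracted legs, whose Myc reads fit the labels (0 to 1 read in controls and 9 to 11 in Myc). None of the 8 passed (edgeR adjusted p = 0.681 to 0.942), nor did any tested gene (background 0%), with 421 genes (6.31%) at an unadjusted p under 0.05 and 1 call by DESeq2. Without the 4 contracted libraries, which enter the spread, 0.0824% of tested genes passed and still none of the 8. The median log2 difference of the 8 was 0.000204, and 4 were below 0. Plekhh3 was the furthest from 0, with 5.60 ± 2.77 CPM in control and 11.3 ± 4.51 CPM in Myc legs (SD, n = 3), a log2 difference of 1.02 (95% interval 0.18 to 1.86, edgeR adjusted p = 0.681). The ranges overlapped at 2.45 to 7.64 and 7.56 to 16.3 CPM. Zfp503 was higher by 0.52 (-0.0928 to 1.13), with non-overlapping ranges of 8.07 to 11.6 and 12.6 to 15.7 CPM, as 7.26% of tested genes had with Myc above control. Inmt differed by 0.35 (-0.0999 to 0.81), Odf3l2 by 0.26 (-0.33 to 0.84), Arrdc2 by -0.50 (-1.21 to 0.22), Frzb by -0.56 (-1.28 to 0.16), Slc25a25 by -0.26 (-0.94 to 0.43) and Abhd12 by -0.30 (-0.97 to 0.38). The uncontracted legs are among the values by which the genes were listed, so these differences are not free of the choice.

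Between contracted legs none of the 8 passed either (edgeR adjusted p = 0.999 for each), and 0 of 6676 genes did (background 0%), with 205 (3.07%) at an unadjusted p under 0.05 and 0 calls by DESeq2. Frzb was higher in the contracted legs labelled Myc, without overlap, by 1.63 (95% interval 0.77 to 2.49), and by 1.77 (0.12 to 3.43) between the libraries numbered 1 alone, whose Myc reads fit their labels. Of the tested genes 4.21% had Myc above control without overlap in contracted legs. The contracted control legs are among the values by which Frzb was listed, so this difference is not free of the choice. The other 7 had differences of -0.60 to 0.71, with intervals that included 0.

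**Figure D4:**
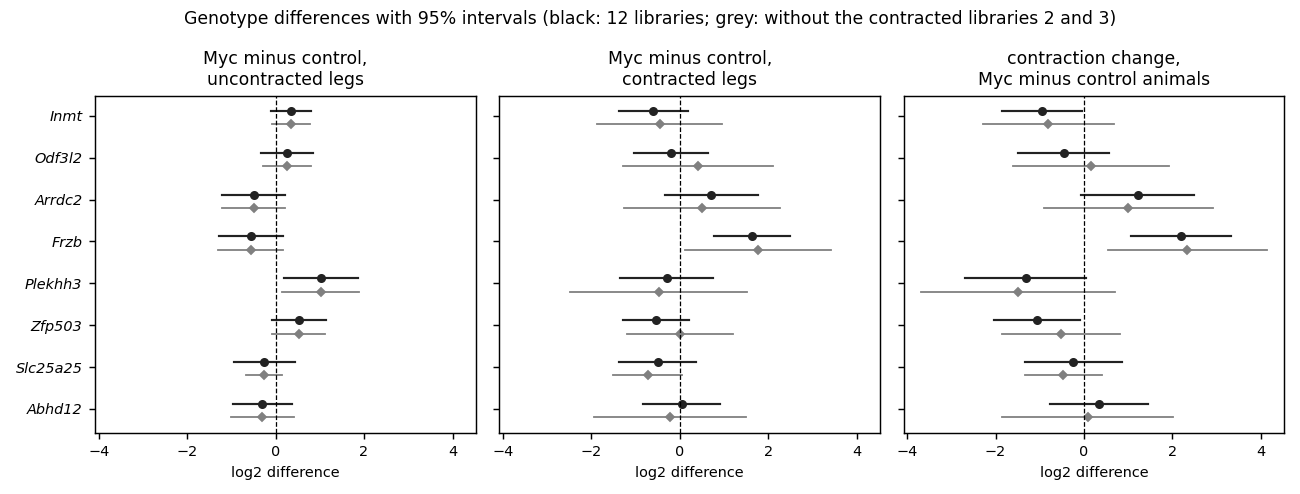
Log2 differences between genotypes for the 8 genes in uncontracted legs, in contracted legs and for the contraction change, with 95% intervals from edgeR. Black uses the 12 libraries and grey leaves out the 4 contracted libraries numbered 2 and 3. Frzb has intervals above 0 in the middle and right panels, and Plekhh3 in the left. In the right panel the black intervals of Inmt and Zfp503 lie below 0. No gene passed after adjustment.

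The likeness of patterns was measured as the mean absolute difference of log2 CPM over the 12 libraries, each gene centred on its own mean. Inmt and Odf3l2 were nearest to each other, at 0.316, and none of 2861 other named genes was nearer to either, which the choice of the 2 genes with the lowest changes favours. Outside the list the nearest gene to Odf3l2 was the clock gene Per3 (0.621), and to Inmt it was Lrrc30 (0.583), which encodes a leucine-rich repeat protein. Slc25a25 was nearest to Mxra8 (0.341), a gene named for matrix remodelling, and Arrdc2 to Slc7a2 (0.333), a transporter gene for cationic amino acids. For Abhd12, Plekhh3, Zfp503 and Frzb the nearest genes were Asb14 (0.228), Nlrx1 (0.279), Dcxr (0.204) and Tpgs1 (0.355). Per3 went from a mean of 30.6 CPM in the 6 uncontracted to 13.4 CPM in the 6 contracted legs, and Lrrc30 from 514 to 247 CPM, values that the choice by likeness fixes and that get no test.

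**Figure D5:**
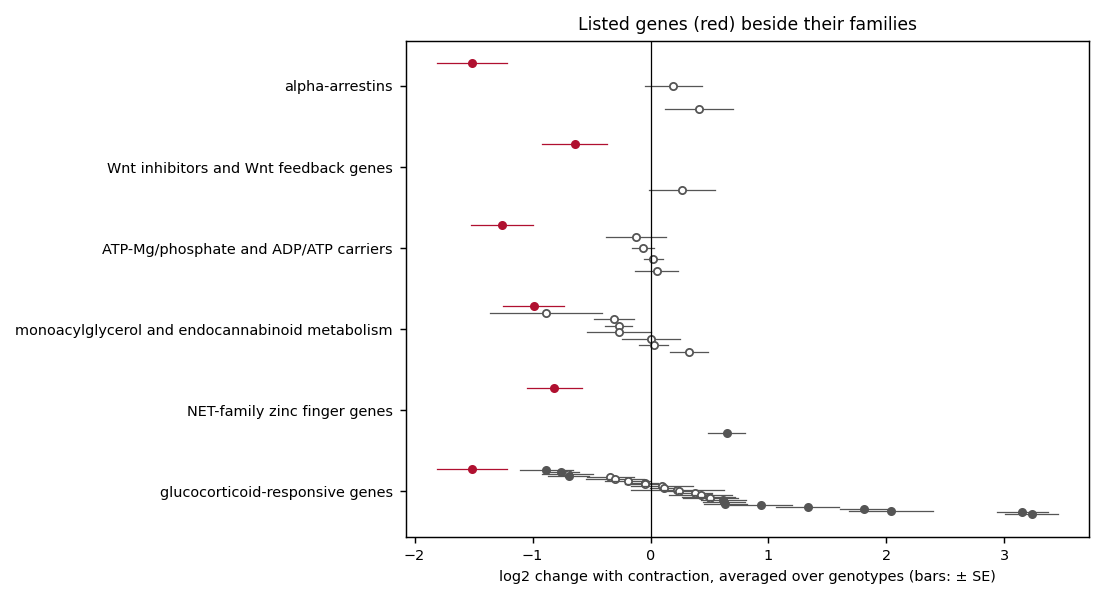
Averaged log2 change with contraction (bars ± SE) of listed genes (red) beside the tested genes of their families or pathways (grey, filled where edgeR's adjusted p is under 0.05). Inmt, Odf3l2 and Plekhh3 are not drawn. Zfp703, at 0.64, lies right of 0 while Zfp503, at -0.82, lies left.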

How the data were processed

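QuantSeq 3' libraries of gastrocnemius from 12 legs were sequenced, per the labels' protocols. The authors deposited raw read counts by gene. The submitters' processing notes list FastQC 0.11.5, STAR 2.5.2a, SAMtools, HTSeq 0.6.0 and mm10, with no role for any. Annotation release, strand setting and filters are not given in the sources used here. Library totals were 1371732 to 1643216 counts, and a count of 0 allows up to 3 reads, 1.80 to 2.32 CPM.

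edgeR 4.0.16 (R 4.3.3) fitted 4 group means over the 12 libraries, with TMM scaling and its own low-count filter (minimum count 10). Its 2-sided quasi-likelihood F test was adjusted by Benjamini and Hochberg's method across 6676 genes, with a threshold of 0.05. An SE is the log2 change divided by the root of F. Ratios of legs have exact binomial 95% intervals (SciPy 1.17.1), which cover counting error only.

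Titles tie both legs to an animal, and across genes the legs' deviations from their groups correlated at -0.122 to 0.112. No libraries of a group were identical or agreed within sampling noise. Members, lists and tests were chosen with earlier results of these data known. Named genes are the 8, the nearest pattern outside them (mean of at least 20 CPM), up to 4 per family list by p, Myc and neighbours; untested family genes were named after their reads were seen. Alternatives were other scalings, filters and dispersions, DESeq2 1.42.0, subsets of libraries and blocks. The fit was tested on simulated data. A result in the methyltransferase list is not reported here.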

Additional observations from a re-analysis of the deposited data

How the results depend on the processing

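The averaged log2 change of each of the 8 genes stayed below 0 under every alternative run. The choice of the genes by lower contracted reads in these libraries favours this sign, so nothing is read from it. Inmt and Odf3l2 stayed between -2.54 and -2.31 and between -2.78 and -2.01. Slc25a25 ranged from -1.72 to -0.41. The count of genes past the threshold on average was 107 instead of 499 without the 4 contracted libraries numbered 2 and 3, where each contracted group is 1 library assumed to vary like the others. In control animals it was 187, with 305 without a low-count filter, 67 without the 4 libraries and 116 to 313 with each library left out, the ends being without contracted control 3 and 1. In Myc animals it was 260, with 433, 59 and 147 to 517, the ends being without contracted Myc 3 and 1. For Myc in uncontracted legs, 0 calls became 24 without a filter, 6 without the 4 libraries, 2 with only the 6 libraries compared, 1 with robust dispersions, 1 by DESeq2 and 0 to 2 with each library left out. Without a filter Myc in contracted legs gave 5 and the genotype difference 18, and the latter 0 to 4 with each library left out.

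Values near 0 changed sign. The contraction change of Plekhh3 in control animals was -0.61 to 0.0419 with each library left out. With each library left out, Odf3l2 had -0.10 to 0.67 for Myc in uncontracted and -0.50 to 0.0291 in contracted legs, Slc25a25 -1.003 to 0.38 in contracted legs and -0.75 to 0.64 for the genotype difference, and Abhd12 -0.11 to 0.20 in contracted legs. Without the 4 libraries Odf3l2 had 0.41 in contracted legs and 0.16 for the genotype difference, and Abhd12 -0.22 in contracted legs. The cause was not tested. With the animal as a replicate block the average count was 440, and the averaged changes of Inmt, Odf3l2 and Slc25a25 were -2.42, -2.20 and -1.32. The number as a block left 0 calls in both Myc comparisons. Counts of 4 to 26 reads per library limit Plekhh3, Frzb, Abhd12 and Zfp503, and counts of 4 to 10 reads in contracted legs limit Arrdc2.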
